A study of Mus musculus and Heterocephalus glaber with 4 samples.

Results

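Control and large T fibroblasts of the naked mole rat (Heterocephalus glaber) have many open-chromatin sites in common. Some of these ranked much higher by score in 1 of the cell populations than in the other. These sites are described here. A site was taken as a pair of peaks, 1 from the list of control cells and 1 from the list of cells carrying SV40 large T antigen, that were each other's longest overlap. Pairs on the 216 scaffolds whose last peak ended beyond 1 Mb were used, which gave 60695 pairs. The authors' peak score was turned into a percentile among the paired peaks of its own list, and a site was kept when its percentiles differed by more than 25 points, unless both peaks were 2000 bp or wider. This left 11548 sites. Of these, 5365 stood higher in the large T list (risers, 8.84% of all pairs) and 6183 stood lower (fallers, 10.2%). With pairs of any width the shares past the limit were 9.51% and 10.8%. These shares follow from the rule itself. The 10461 pairs that were 2000 bp or wider in both lists were left out as members, among them 405 that were past the limit upwards and 379 that were past it downwards. The remaining 38686 pairs, within 25 points and not broad in both lists, are called steady pairs and serve as the comparison.

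The series holds 4 ATAC-seq libraries of adult skin fibroblasts, 1 per group: control and large T cells of mouse and of naked mole rat. The naked mole rat cells were at passage 16 and grew at 32 °C in 15% serum, 3% oxygen and 5% CO2. The control cells and the cells with SV40 Large T antigen differ, as far as the labels say, only in that antigen. Neither the number of animals or clones behind a library nor the promoter that drove the antigen is stated. Each reaction took 50000 cells and 30 min of transposition. The control list held 80661 peaks and the large T list 83297. Depth is unknown, no group has a replicate, and the members were chosen by this same contrast, so no test was run and every comparison is a description. Intervals of shares are exact 95% binomial intervals over sites. For shares of single-list peaks they run over couples of a site and a nearby peak. A peak near several sites is counted once for each of them. Intervals of medians come from the ordered values. Counting error is all these intervals cover, with neighbouring sites and couples taken as independent. Peak lists carry no expression values, so the fibroblast label could not be checked against marker genes.

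In ATAC-seq a transposase cuts and tags DNA that is not wrapped in nucleosomes, so peaks mark promoters, enhancers and other sites held open by bound factors. SV40 large T antigen is a viral protein that binds p53, the stress-responsive tumour suppressor, and the retinoblastoma family, which holds the cell cycle in check, and it is widely used to keep cultured cells dividing. The peak names in the lists begin with MACS, a caller that scores a peak against a background estimated from reads in the surrounding region. Whether the deposited scores were made in this way is not stated. Positions below are on naked mole rat scaffolds, and no source used here names the assembly release.

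Most risers came from the weak end of the control list and reached the middle of the large T list. Their median percentile was 17.8 in control cells and 57.3 in large T cells, and the median difference was 34.1 points. Fallers went from a median of 62.6 in control cells to 18.3 in large T cells, a median difference of -36.9 points. These values follow from the choice of members and are given as a description. With ranks taken among paired peaks, falls were larger than rises among the members. A difference of more than 50 points was found for 1350 fallers (21.8%) and 665 risers (12.4%), against 3.42% of all pairs either way. At the strong end, 392 fallers had been among the highest 10% of paired control peaks (6.46% of those peaks). In the highest 10% of paired large T peaks, 74 were risers (1.22%). From above the 75th percentile to below the 25th went 442 fallers (7.15%), and 147 risers (2.74%) went the opposite way. Over all pairs, broad ones included, these were 451 (0.743%) and 154 (0.254%). Fallers outnumbered risers by 818 when ranks were taken among paired peaks. Ranked within the whole lists the order turned, with 6632 risers and 5565 fallers. The sizes of falls and rises are given here only for ranks among paired peaks.

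**Figure D1:**
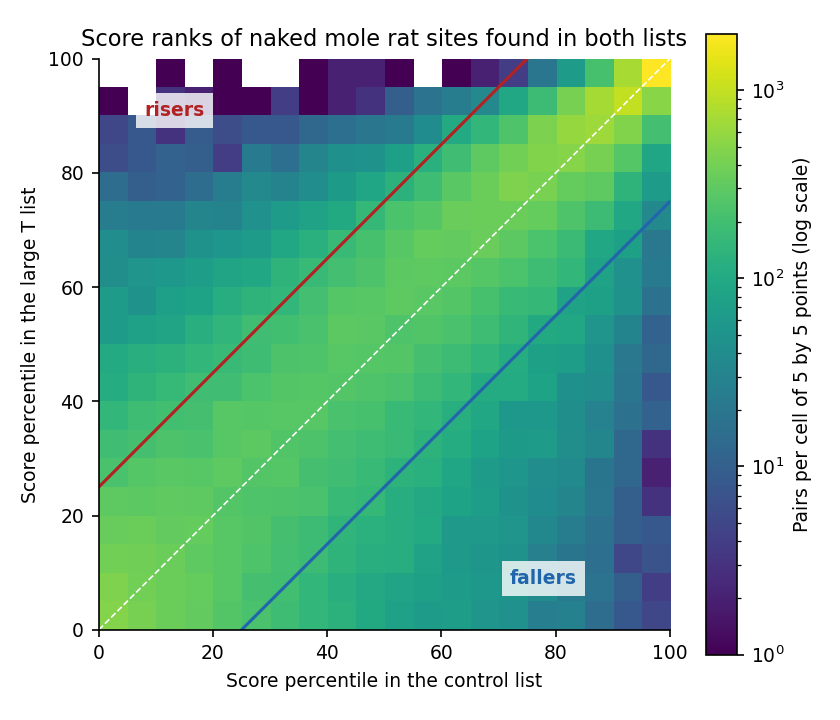
Score percentile of each of the 60695 paired sites in the control list (x axis) and in the large T list (y axis), counted in cells of 5 by 5 points on a log colour scale, broad pairs included. Sites above the red line are over 25 points higher in large T cells and those below the blue line over 25 points lower; the 7 cells without a pair all lie above the red line.

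Members were most frequent in the lower middle of the lists, a distribution limited by the ends of the percentile scale and by the rule. A site near an end has little room to move further. Pairs broad in both lists, which the rule bars from membership, are counted among the pairs here. By the mean of both percentiles, risers made up 17.3% of pairs between 20 and 30. Between 70 and 80 they made up 2.44%, and between 80 and 90 it was 5 of 5647 pairs. Fallers made up 19.5% of pairs between 30 and 40, 5.45% between 70 and 80, and 46 pairs between 80 and 90. Of the 5647 pairs between 80 and 90 and the 5310 between 90 and 100, 5838 were steady. Most of the others were broad in both lists. In the lowest 10% of the control list 27.7% of pairs were risers, and in the lowest 10% of the large T list 31.6% were fallers. Some members were barely called in the weaker library. The lists start at a score of 50. In the list where they ranked lower, 17.8% of risers and 15.3% of fallers had a score under 60, against 9.08% of steady pairs. Part of this gap follows from the rule, since a member cannot stand near the top in both lists and a steady pair can. Broad sites changed rank less often: 7.49% of pairs broad in both lists were past the limit, against 23.0% of the other pairs. These shares were not matched for rank, and median peak width rose with rank.

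The limit itself cuts through a continuous range. The riser just inside it, on JH602069 at 9678308 to 9679684 in control cells, differed by 25.0021 points, with scores of 90.88 and 180.64. The pair just outside, on JH602049 at 2010422 to 2011000, differed by 24.9955 points, with scores of 54.61 and 120.98. Among fallers, the site on JH602059 at 4175749 to 4177781 went from 51.5 to 26.5 and was the last inside, and another on the same scaffold at 11429485 to 11431762 went from 46.9 to 21.9 and was the first outside. Sites on either side of the limit thus had nearly equal differences.

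The 8 sites with the largest rise lay on 8 scaffolds and stood between percentiles 0.098 and 10.7 in control cells and between 84.8 and 97.3 in large T cells. The largest was on JH602082, where the control peak at 1460037 to 1460740 scored 54.13 (percentile 2.33) and the large T peak at 1459680 to 1460787 scored 688.66 (percentile 94.4). The peak widened from 704 to 1108 bp. On JH602077 a control peak of 625 bp at 18264380 to 18265004 rose from percentile 0.132 to 88.9, and the large T peak there was 1398 bp wide. The paired sites on both sides of it were risers too. The site on JH602063 reached the highest rank of the 8, percentile 97.3, from 10.7 in control cells. Its peak was 652 bp wide in control cells (22573216 to 22573867) and 1834 bp in large T cells. The site on JH602153 widened most, from 685 bp (500126 to 500810) to 2413 bp, as it went from percentile 6.37 to 89.4. The other 4 lay on JH602199 (1848878 to 1849902), JH602075 (6469586 to 6470150), JH602118 (3779289 to 3780071) and JH602064 (4010284 to 4011086), and also ended above percentile 84.8. The JH602199 site had a faller as an adjacent pair and its nearest control-only peak 1.795 kb away. Within 20 kb, 4 of the 8 sites had a large T-only peak and 1 had a control-only peak. All 8 were wider in large T cells.

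The 8 largest falls began among the strongest sites of the control list, between percentiles 94.9 and 98.8, and ended between 0.856 and 5.30 in large T cells. The largest was on JH602109, where a control peak of 2060 bp at 2649345 to 2651404 scored 853.64 (percentile 98.8). The large T peak was 652 bp wide, at 2650479 to 2651130, and scored 54.66 (percentile 2.23). On JH602055 the peak at 24830267 to 24832379 fell by 94.1 points, to percentile 0.856, and from 2113 to 815 bp. On JH602083 the peak at 1886150 to 1888109 fell by 93.5 points, to percentile 1.53, and from 1960 to 643 bp. On JH602062 the peak at 7724801 to 7726281 fell from 98.2 to 5.30, beside another faller, with a control-only peak 4.69 kb away. The remaining sites were on JH602199 (497838 to 499756), JH602079 (10387463 to 10389129), JH602098 (6446936 to 6448861) and JH602111 (1341143 to 1342689), with falls of 91.3 to 92.6 points. The JH602199 site had a riser as an adjacent pair. Within 20 kb, 4 of the 8 sites had a control-only peak and 2 had a large T-only peak. All 8 were narrower in large T cells. The deepest falls thus covered more of the rank scale than the steepest rises, and JH602199 carried a site of each kind.

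Width changed with rank, although the rule did not use it except to leave out broad pairs. Risers had a median width of 978 bp in control cells and 1387 bp in large T cells. The median log2 ratio of large T to control width was 0.43 (95% interval 0.42 to 0.45), a factor of 1.35. Fallers went from 1346 to 991 bp, with a median log2 ratio of -0.38 (-0.40 to -0.37), a factor of 0.767. Steady pairs were slightly wider in large T cells, with a median log2 ratio of 0.08, and over all pairs it was 0.06. Of the risers 88.6% (87.7 to 89.4) were wider in large T cells, against 16.0% (15.1 to 16.9) of fallers and 60.2% of steady pairs. Both ends lay further out in the large T peak at 68.0% of risers and further in at 61.5% of fallers, against 36.4% and 20.1% of steady pairs. At 25.3% of risers and 29.7% of fallers both ends moved in the same direction, against 15457 of the 38686 steady pairs and 38.3% of all pairs.

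**Figure D2:**
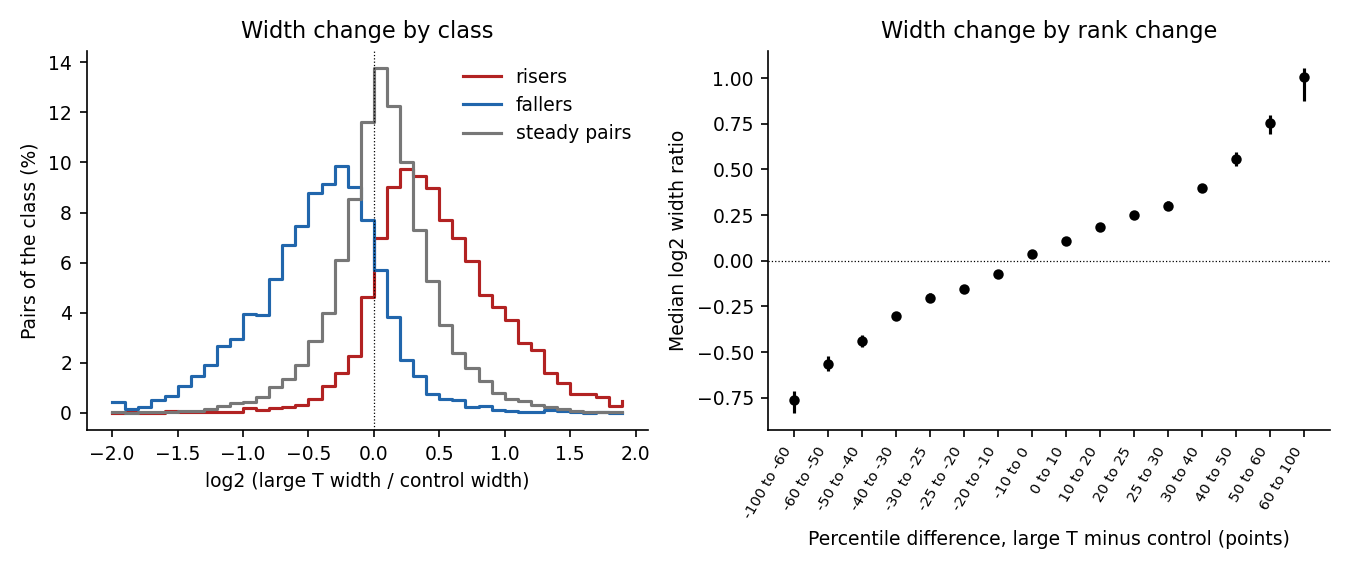
Left, distribution of the log2 ratio of large T to control peak width for risers, fallers and steady pairs, as a percentage of each class in steps of 0.1, with ratios past 2 or -2 in the outermost steps. Right, median log2 width ratio of all pairs not broad in both lists against the percentile difference, with exact 95% intervals of the median; it climbs from -0.76 at falls of over 60 points to 1.00 at rises of over 60 points.

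The width change was graded with the rank change. Sites that fell by more than 60 points shrank from a median of 1506 to 869 bp. Those that rose by more than 60 points widened from 790.5 to 1581 bp, a factor of 2.00. Sites that rose by 25 to 30 points widened by a factor of 1.23. Over the 50234 pairs not broad in both lists, Spearman's rho between percentile difference and log2 width ratio was 0.51. These sites share the same 2 libraries, and score and width come from the same peak call, so the relation is given as a description. A minority went against it. Of the risers 612 were narrower in large T cells and of the fallers 990 were wider.

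At a given rank, the peaks of members were about as wide as those of steady pairs. In the large T list between percentiles 40 and 60, risers had a median width of 1302 bp (1281 to 1329) and steady pairs 1300 bp (1290 to 1312). In the control list below percentile 20, risers measured 863 bp (853 to 874) and steady pairs 872.5 bp (867 to 878). From percentile 40 upwards, fallers in control cells were slightly narrower than steady pairs of the same rank. They measured 1216.5 against 1259 bp between percentiles 40 and 60 and 1610 against 1698 bp above 80. Risers above percentile 80 of the large T list were also narrower, 1642 against 1769 bp. Between 20 and 40, risers were wider than steady pairs in both lists, 1076 against 1043 bp in control and 1129 against 1083 bp in large T cells. Fallers in that band of the control list measured 1058 bp (1034 to 1092), against 1043 bp (1036 to 1049) for steady pairs. The widest gap was at fallers between 60 and 80 of the large T list, 1375.5 against 1523 bp. These gaps were smaller than the median width difference of a riser or a faller between the lists.

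**Figure D3:**
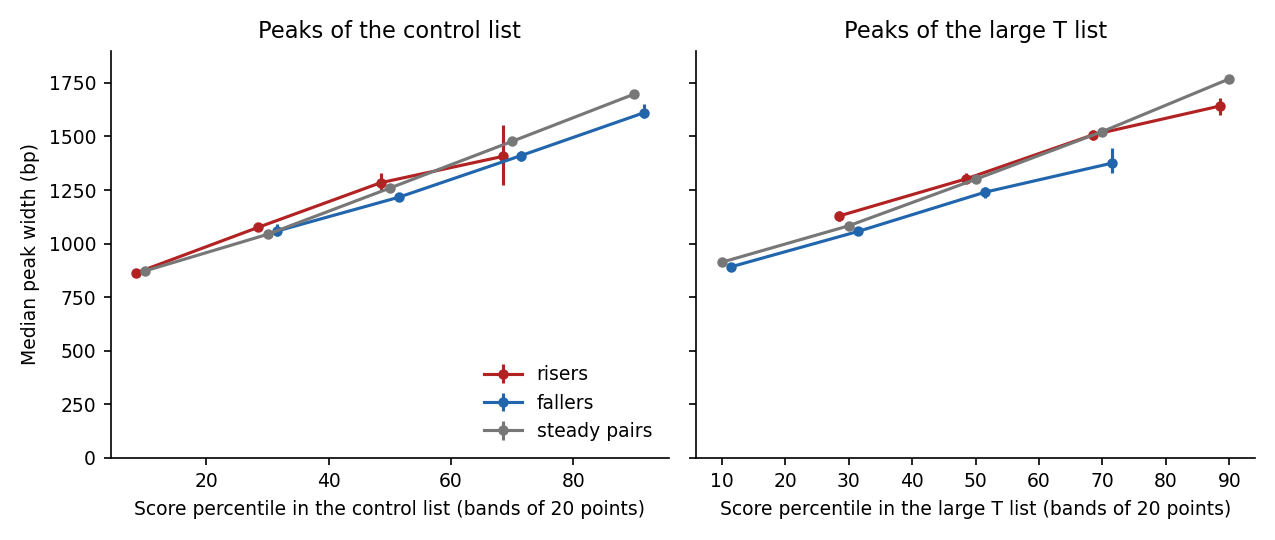
Median peak width in bp against score percentile in bands of 20 points, in the control list (left) and the large T list (right), for risers, fallers and steady pairs, with exact 95% intervals of the median; points are drawn where a band holds at least 50 sites. The 3 classes follow nearly the same rise in width with rank, with members below steady pairs in the highest band.

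A wide peak in 1 list sometimes covered several peaks of the other. The large T peak overlapped more than 1 control peak at 197 risers (3.67%) and 8 fallers (0.129%), against 0.644% of steady pairs. The control peak overlapped several large T peaks at 182 fallers (2.94%) and 9 risers (0.168%), against 0.447% of steady pairs. The share of members to which this applied was thus small. The 2000 bp line was crossed by more: 776 risers (14.5%) were narrow in control and broad in large T cells, and 770 fallers (12.5%) the reverse. Among steady pairs 9.80% went from narrow to broad and 4.62% from broad to narrow.

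Members were spread over nearly all of the sequence. Only 9 of the 216 scaffolds had no riser and 3 had no faller, and these carried at most 65 and 30 pairs. Among the 73 scaffolds with at least 300 pairs, risers made up 6.17% to 18.3% of pairs (median 8.58%) and fallers 1.98% to 15.4% (median 10.3%). Fallers outnumbered risers on 48 of the 73 and risers outnumbered fallers on 24. The intervals of the riser share lay above the 8.84% of all pairs on 8 scaffolds and below it on 3. For the faller share, 10 lay above 10.2% and 18 below. The faller share was lower on shorter scaffolds, with a Spearman's rho of 0.41 between it and the position of the last peak. For the riser share this rho was -0.09. Few sites of any class lay near scaffold ends: 1.71% of risers, 1.55% of fallers and 2.00% of steady pairs lay within 100 kb of a scaffold's start or of its last peak.

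JH602052 was named in earlier results of these data for its many large T peaks. Among the 73 scaffolds with at least 300 pairs it had the highest share of risers. They numbered 131 of its 717 pairs (18.3%, 15.5 to 21.3), with 64 fallers (8.93%). In the 7 windows of 5 Mb from 0 to 35 Mb risers made up 15.8% to 21.0% of pairs, and in the last window, which held 13 pairs, there was 1 riser. Risers thus ran along most of the scaffold. Its risers had a median width of 865 bp in control and 1311 bp in large T cells, a log2 ratio of 0.66, against 0.43 for risers elsewhere. Of its risers, 34.4% had another riser as an adjacent pair, near the 33.2% of all pairs on this scaffold, whose median log2 width ratio was 0.30. Only 2.44% of all risers lay on this scaffold, and without it the number of risers was 5259 and the share with an adjacent riser 20.1%.

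Of these 73 scaffolds, JH602141 came next with 60 risers and 9 fallers among 435 pairs (13.8% and 2.07%). JH602145 had 44 risers and 7 fallers among 353 (12.5% and 1.98%). On these scaffolds the whole set of pairs was shifted, with a median percentile difference of 9.95 and 8.97 points, against 1.00 over all pairs. JH602096 had 38 risers among 300 pairs (12.7%). Within the same 73 scaffolds the riser share was lowest on JH602131 (6.17%), JH602059 (6.33%) and JH602079 (6.36%). JH602131 was also low in fallers (4.94%, 2.85 to 7.90), while its riser interval of 3.81 to 9.37 held the share of all pairs. Among the 73 scaffolds the faller share was highest on JH602070 (15.4%, 82 of 532 pairs), JH602064 (14.6%) and JH602075 (14.3%).

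Of the scaffolds with at least 300 pairs, those with the highest riser shares also had many peaks found in large T cells alone. On JH602052, 503 of 659 single-list peaks, that is peaks that overlap none of the other list, were large T-only (76.3%). On JH602141 it was 71.5% and on JH602145 69.1%, against 53.5% on all scaffolds used. On JH602070 it was 44.1%. JH602131 went against this order, with the lowest riser share of the 73 scaffolds and 61.3% large T-only peaks. Over the 73 scaffolds, Spearman's rho between the large T-only share and the riser share was 0.52, and with the faller share it was -0.46. The scaffolds share the same pair of libraries, so these values are a description.

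**Figure D4:**
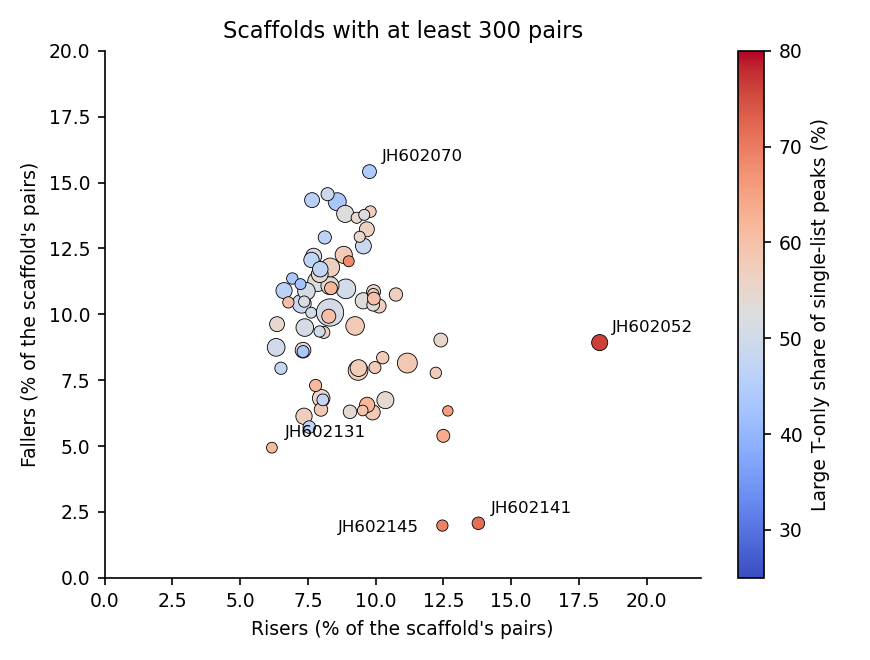
Share of risers (x axis) and of fallers (y axis) among the pairs of each of the 73 scaffolds with at least 300 pairs. Point area is proportional to the number of pairs and colour gives the large T-only share of the scaffold's single-list peaks; JH602052 lies alone at 18.3% risers, and JH602141 and JH602145 at about 2% fallers.

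Members of a class lay next to each other somewhat more often than pairs in general. A riser was the previous or next pair on the scaffold for 20.4% (19.3 to 21.5) of risers, against 16.7% of all pairs. A faller was adjacent for 26.3% (25.2 to 27.4) of fallers, against 19.0% of all pairs. Most members still stood alone: 79.6% of risers and 73.7% of fallers had no adjacent member of their class. Runs of 3 or more consecutive risers numbered 65, and of fallers 117.

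The longest run of risers held 5 sites, and 3 runs had this length. On JH602044 (35730248 to 35781408) the 5 stood between percentiles 5.54 and 40.6 in control cells and between 59.1 and 76.0 in large T cells. The run on JH602052 (22604606 to 22672724) had widths of 663 to 1426 bp in control and 1098 to 2888 bp in large T cells, and all 5 sites were wider in the latter. These runs enclosed 2 and 1 control-only peaks and no large T-only peak. On JH602091 (5865444 to 6083654) the 5 risers were spread among 12 large T-only peaks and no control-only peak. The longest run of fallers held 7 sites over 621.35 kb of JH602078 (4018512 to 4639861), among 10 control-only and 2 large T-only peaks. Runs of 5 fallers on JH602050 (26196381 to 26280754) and JH602210 (2224664 to 2326664) also enclosed control-only peaks, 5 and 2, and no large T-only peak. These are the shortest of the 7 runs of that length.

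Pairs that flanked long stretches of single-list peaks were members of the matching kind more often than pairs in general. Control cells had 144 runs of at least 5 consecutive control-only peaks, and of the 277 pairs that flanked them 87 were fallers (31.4%, 26.0 to 37.2) and 9 were risers (3.25%). Around the 204 runs of at least 5 large T-only peaks, 81 of 392 flanking pairs were risers (20.7%, 16.8 to 25.0) and 26 were fallers (6.63%). Over all pairs the shares are 8.84% and 10.2%. Pairs at the edges of control-only stretches were thus mostly fallers among the members, and those at large T-only stretches mostly risers.

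Nearness to single-list peaks ran in the same direction when all peaks within 20 kb were counted. A large T-only peak lay within 20 kb of 37.9% of risers (36.6 to 39.2), 32.3% of fallers (31.2 to 33.5) and 34.6% of steady pairs. A control-only peak lay that near to 31.0% of risers, 38.4% of fallers (37.1 to 39.6) and 31.8% of steady pairs. Summed over sites, large T-only peaks made up 55.2% (53.8 to 56.7) of the single-list peaks within 20 kb of risers. Around fallers it was 44.9% (43.6 to 46.3) and around all pairs 51.4%. Risers had the highest share and fallers the lowest in each of the 4 bands of mean percentile up to 80, although the intervals of risers and steady pairs overlapped in all of these but the band from 40 to 60. Between 60 and 80, for example, the share was 53.1% around risers, 40.1% around fallers and 51.8% around steady pairs. The nearest large T-only peak was a median of 29.2 kb from a riser and 37.9 kb from a faller. The nearest control-only peak was 43.4 kb from a riser and 29.2 kb from a faller.

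At short range the direction was the opposite, and the change came at a distance of 5 kb between peak centres. Both species and the spacing of peaks within each list changed at this same distance, as given below, and whether the change arose in the peak calling or in the chromatin was not tested. Among single-list peaks centred 4 to 5 kb from a riser, 35 were large T-only and 158 control-only, a large T-only share of 18.1%. Between 5 and 6 kb it was 53.8% and between 6 and 7 kb 65.6% (59.2 to 71.5). Around fallers the share was 69.6% (63.3 to 75.3) between 4 and 5 kb, 40.8% (35.1 to 46.7) between 5 and 6 kb and 36.0% (30.7 to 41.5) between 6 and 7 kb. Around steady pairs it moved little, from 48.1% to 51.8% and 54.0%. Over all distances within 5 kb, large T-only peaks made up 22.2% around risers and 69.8% around fallers, against 47.6% around all pairs. From 5 to 20 kb they made up 62.0% and 39.7%, against 52.0%. Within 5 kb, 3.28% of risers had a large T-only peak and 11.1% a control-only peak, against 5.65% and 6.22% of all pairs. Between 5 and 20 kb, 33.4% of risers had a large T-only peak and 21.5% a control-only peak. Over all pairs these were 28.5% and 26.2%. Neither kind lay within 20 kb of the edges of 42.6% of risers, near the 44.5% of all pairs.

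Adjacent pairs turned at the same distance. When 2 neighbouring pairs were centred within 5 kb of each other, the neighbour of a riser was a faller in 24.9% of cases and a riser in 2.62%. Of all pairs at that distance 10.4% were fallers and 7.75% risers. Beyond 5 kb it was a faller in 8.66% and a riser in 11.5%, nearer to the 10.2% and 8.91% of all pairs at those distances. The neighbour of a faller was a riser in 18.6% of cases within 5 kb and in 7.58% beyond, and a faller in 5.13% and 15.0%. Of the 3936 neighbouring couples within 5 kb, 152 joined a riser to a faller, 8 joined risers and 21 joined fallers. Spearman's rho between the percentile differences of neighbours was -0.28 over these couples and 0.09 over the 56543 couples farther apart. Neighbours share their scaffold and both libraries, so these values describe the lists.

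**Figure D5:**
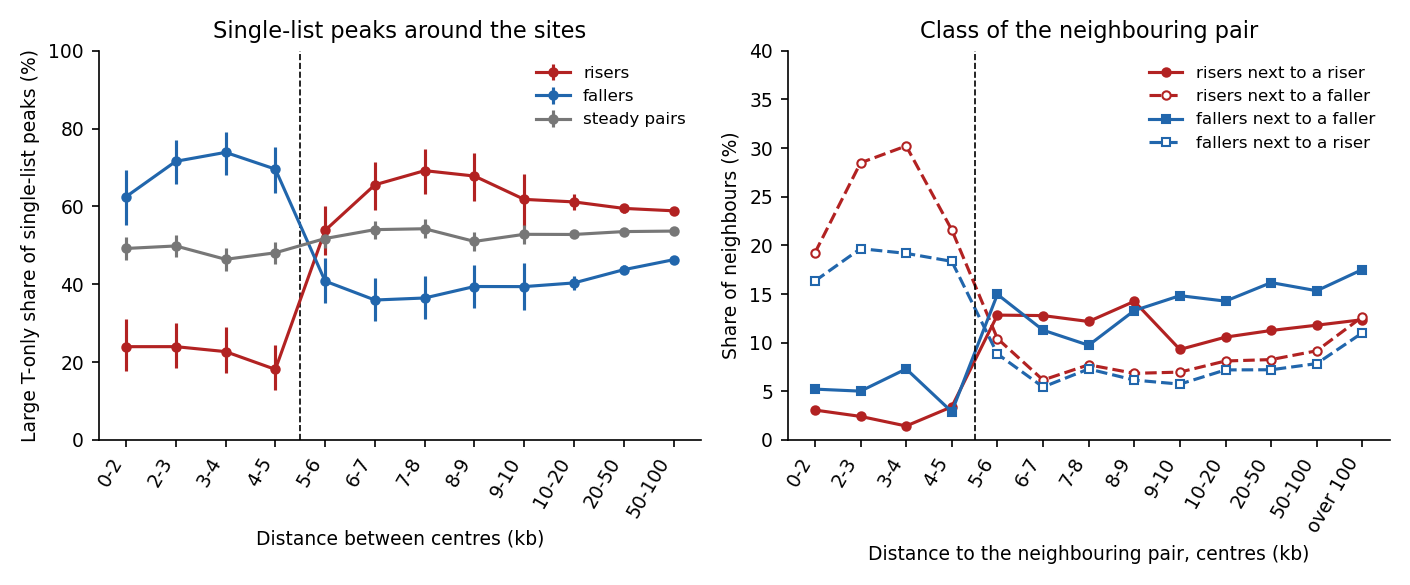
Left, share of large T-only peaks among the single-list peaks around risers, fallers and steady pairs, summed over sites, by distance between centres in kb, with exact 95% intervals. Right, share of neighbouring pairs that are risers or fallers, by distance between centres; the dashed line in both panels marks 5 kb, where the order of risers and fallers turns.

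The lists themselves were thinner below this distance. In the control list 2399 consecutive peaks were centred 4 to 5 kb apart and 3852 were 5 to 6 kb apart, and in the large T list the numbers were 2253 and 3910. Most members had no such close neighbour. For 72.3% of risers, 70.5% of fallers and 73.5% of steady pairs, no other peak of either list was centred within 5 kb. Risers had more other control than large T peaks within 5 kb in 14.4% of cases and fewer in 3.13%. For fallers these were 4.45% and 13.1%, and for steady pairs 6.96% and 6.39%. The part of close neighbours in the choice of members was not tested. Among pairs with no other peak within 5 kb, 3877 risers and 4359 fallers remained, with median log2 width ratios of 0.48 and -0.41. A riser was adjacent to 21.5% of these risers and a faller to 28.7% of these fallers. Over all pairs without such a neighbour these shares were 16.8% and 18.9%.

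The same rule, without the scaffold limit, gave 4138 risers (7.75%) and 4350 fallers (8.15%) among 53375 pairs of the mouse lists, in cells kept at 37 °C. With pairs of any width the mouse shares were 8.39% and 8.44%. With 1 pair of libraries per species the difference between species was not tested. Mouse risers widened by a median log2 ratio of 0.13 and mouse fallers narrowed by -0.56, around an all-pairs median of -0.16, against 0.43 and -0.38 around 0.06 in naked mole rat. A riser was adjacent to 18.5% of mouse risers (all pairs 14.8%) and a faller to 19.0% of mouse fallers (all pairs 15.5%). The change at 5 kb was seen in both species. Large T-only peaks made up 18.4% of single-list peaks within 5 kb of mouse risers and 69.4% of those near fallers, against 41.8% around all mouse pairs. From 5 to 20 kb they made up 40.5% and 25.5%, against 33.4% around all mouse pairs. Of the neighbours of mouse fallers 27.2% were risers within 5 kb and 6.99% beyond. Of all mouse pairs at those distances 11.0% and 7.56% were risers.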

How the data were processed

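The authors deposited a headerless list of peaks for each of the 4 libraries, giving sequence, start, end, name and score. In both naked mole rat lists the deposited score starts at 50, and no source used here defines it. Peak names begin with MACS. The submitters' processing notes name mm9, which cannot be the build of naked mole rat scaffolds, and CASAVA, Bowtie, SAMtools and bedtools without roles. Starts are printed 1-based. Overlap of at least 1 bp was required, and percentiles were taken among paired peaks, with ties averaged. Scores were compared only as ranks within a list. Depth is unknown, and no test was possible with 1 library per group.

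The members, comparisons and lists were chosen with earlier results of these data known. The sites named are the 8 largest differences per direction, those next to the limit, the 3 longest runs per direction (the shortest span first), and the 3 scaffolds of highest and lowest shares with at least 300 pairs, with JH602052 added. The analyses by centre distance, of flanked runs and of pairs without close neighbours were chosen after seeing the data. The functions were checked on simulated lists with 200 planted sites per direction. Scripts ran under Python 3.11.15 with scipy 1.17.1 and pandas 2.3.3, and figures were drawn with matplotlib 3.10.9.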

Additional observations from a re-analysis of the deposited data

How the results depend on the processing

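No alternative turned a direction of the width changes, and 42 of 76 values stayed within their interval or within 1.5 times the count. The order of the numbers of risers and fallers did turn when ranks were taken within the whole lists. With a limit of 20 points the median log2 width ratios were 0.37 (risers) and -0.32 (fallers), and the shares with an adjacent member of the same class 26.7% and 30.5% (all pairs 23.6% and 24.4%). With 30 points they were 0.51 and -0.44, and 15.8% and 21.9% (11.5% and 14.6%). Requiring 50% of both peaks to overlap gave 0.36 and -0.32, 17.3% and 23.4% (14.8% and 17.3%), and a large T-only share of 53.2% around risers (all pairs 51.5%). Whole-list ranks gave 0.41 and -0.40, and 23.1% and 23.5% (20.5% and 17.2%). Peaks scoring at least 100 gave 3567 risers and 4108 fallers, 0.29 and -0.27, 24.9% of fallers beside a faller (18.4%), and a large T-only share of 43.4% around fallers (51.1%). With broad pairs kept, the width ratios were 0.41 and -0.36. Counting adjacent pairs only within 20 kb gave 10.1% of risers and 12.4% of fallers (8.71% and 10.1%), and single-list peaks within 50 kb gave 57.5% around risers (52.5%). Of the alternatives chosen after seeing the data, pairs with no other peak centre within 5 kb gave 0.48 and -0.41, and 21.5% and 28.7% (16.8% and 18.9%), and single-list peaks centred 5 to 20 kb away gave 62.0% around risers and 39.7% around fallers (52.0%). All scaffolds, and leaving out JH602052, moved none of the 8 results outside these bounds. No paired analysis was possible because each group has 1 library. Causes were not tested, and depth, which limits how weak a site can be called, is unknown.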
